A study of Mus musculus with 3 samples.

Results

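The genes described here encode the subunits, activators and assembly chaperones of the mouse proteasome. They were chosen by symbol: every gene named Psma, Psmb, Psmc, Psmd or Psme followed by a digit, without Psmb8, Psmb9 and pseudogenes. The rule took 43 of the 32285 genes in the count tables. It also took Psmc3ip, which encodes a protein of meiotic recombination and not a proteasome subunit. The genes were followed in peripheral blood mononuclear cells of C57BL/6 mice, separated over lymphocyte separation medium and sequenced with the 10x 3' v3 chemistry from preparations of over 80% viable cells. There were 3 groups of 1 library each: young and aged mice given PBS for 1 month, and aged mice given AA (ascorbic acid in the study's title) for 1 month, labelled Aged+AA and called the AA library below. The labels give no ages beyond young and aged, no number of mice and no route of treatment.

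The proteasome is the protease that degrades proteins tagged with ubiquitin. Its 20S core is a barrel of alpha rings, which gate the entrance, around beta rings, in which Psmb5, Psmb6 and Psmb7 carry the active sites. The 19S cap has a ring of ATPases (Psmc genes) that unfold substrates and non-ATPase subunits (Psmd genes) that bind ubiquitin and remove it. The activators encoded by Psme genes dock on the core in place of the 19S cap, and in immune cells the pair Psme1 and Psme2, together with the inducible active-site subunit Psmb10, is known from the processing of antigen peptides.

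The libraries held 64496639 (young), 94944551 (aged) and 80424480 (AA) UMIs over all barcodes, a UMI being a label that counts 1 captured RNA molecule. After filtering, 8743, 9765 and 11090 cells were kept, with a median of 4451, 3610 and 4059 UMIs. Marker genes, none of them a proteasome gene, gated 5367 young, 1956 aged and 4235 AA T cells, 2483, 3975 and 5166 B cells, 239, 170 and 118 NK cells, and 59, 1923 and 271 myeloid cells. Between 22 and 29 cell barcodes were shared by each pair of libraries. The libraries stood apart in more than the treatments. Ribosomal protein genes took 41.3%, 34.3% and 38.6% of the UMIs of T cells in the young, aged and AA library, mitochondrial genes took 5.15%, 3.09% and 4.36%, and the 4 erythroid markers, all detected, summed to 943, 6074 and 2002 CPM (UMIs per 1000000 UMIs of the same cells); in B cells they summed to 1199, 7602 and 2600 CPM. The 8 myeloid markers, again all detected in T cells, summed to 96.0, 490 and 154 CPM there. These differences lie between the same libraries as every comparison of age or AA below, and their part in those results was not tested. With 1 library per group no p-value is given between groups, and all intervals are 95% intervals for counting error only. In summed RNA of a class, fewer cells of a kind and less RNA per cell cannot be told apart.

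The promoters of 4 of the genes are shown because the results below turn on them: Psme1 and Psme2, which differed between cell classes, and Psme3 and Psmd4, which differed in opposite directions between libraries. Each window runs from 250 bases before to 50 bases after a RefSeq start site (GRCm38.p6), 5′ to 3′ on the gene's strand. Capitals mark matches on either strand to 5 motifs: the GC box GGGCGG, the CCAAT box CCAAT, the ETS core CCGGAAG, the interferon-stimulated response element (GAAA, any 2 bases, GAAA) and the core of the antioxidant response element TGACNNNGC. These motifs were searched one by one, and where matches overlapped the capitals join.
Psme1 (chr14:55578244-55578543, plus strand): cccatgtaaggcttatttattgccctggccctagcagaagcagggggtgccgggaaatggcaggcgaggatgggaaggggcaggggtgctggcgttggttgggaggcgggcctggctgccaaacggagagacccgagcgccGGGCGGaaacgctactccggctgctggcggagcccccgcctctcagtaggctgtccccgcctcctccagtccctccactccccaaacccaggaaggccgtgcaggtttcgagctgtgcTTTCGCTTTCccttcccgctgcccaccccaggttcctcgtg
Psme2 (chr14:55591052-55591351, minus strand): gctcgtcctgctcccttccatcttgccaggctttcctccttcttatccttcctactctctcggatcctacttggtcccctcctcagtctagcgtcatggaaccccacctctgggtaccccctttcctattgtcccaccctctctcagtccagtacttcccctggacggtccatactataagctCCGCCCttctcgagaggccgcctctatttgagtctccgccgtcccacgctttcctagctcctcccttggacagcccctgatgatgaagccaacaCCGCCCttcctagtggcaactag
Psme3 (chr11:101315963-101316262, plus strand): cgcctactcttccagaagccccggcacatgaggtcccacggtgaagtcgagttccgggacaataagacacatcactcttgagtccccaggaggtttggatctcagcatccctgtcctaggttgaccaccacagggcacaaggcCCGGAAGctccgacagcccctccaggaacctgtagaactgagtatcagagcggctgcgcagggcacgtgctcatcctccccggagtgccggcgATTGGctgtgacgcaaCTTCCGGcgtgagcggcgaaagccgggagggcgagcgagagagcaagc
Psmd4 (chr3:95042565-95042864, minus strand): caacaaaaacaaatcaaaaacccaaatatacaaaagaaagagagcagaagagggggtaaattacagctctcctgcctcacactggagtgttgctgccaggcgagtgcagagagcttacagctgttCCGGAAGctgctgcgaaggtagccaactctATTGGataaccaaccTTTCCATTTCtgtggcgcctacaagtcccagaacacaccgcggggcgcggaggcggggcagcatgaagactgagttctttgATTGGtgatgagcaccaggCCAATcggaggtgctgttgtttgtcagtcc
The Psme1 window holds 1 GC box and 1 match to the interferon-stimulated response element, and the Psme2 window holds 2 GC boxes. Psme2 has a second RefSeq start site with an overlapping window, which is not shown. The Psme3 window holds 2 ETS cores and 1 CCAAT box. The Psmd4 window holds 1 ETS core, 1 match to the interferon-stimulated response element and 3 CCAAT boxes. A RefSeq window was found for 36 of the 43 genes (39 windows). Of these windows, 35.9% held the ETS core, against 8.86% of all 32851 promoter windows, and 56.4% held a GC box, against 35.7%. The CCAAT box was in 35.9% against 37.4%, the interferon-stimulated response element in 10.3% against 3.44%, and the antioxidant response element core in 15.4% against 12.4%. These matches are a description of letters and not of bound sites.

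The composition of the proteasome RNA differed between the libraries, and these shares do not depend on how libraries are scaled. In T cells, the 5 activator genes took 16.1% of the UMIs of the 43 genes in the young library (exact Clopper-Pearson interval 15.8% to 16.3%), 18.96% in the aged library (18.6% to 19.3%) and 17.9% in the AA library (17.7% to 18.2%). The 6 ATPase genes of the 19S cap took 8.65% (8.48% to 8.82%), 7.49% (7.25% to 7.74%) and 8.38% (8.21% to 8.55%) in the same order. The 11 non-ATPase genes of the cap took 17.5% (17.3% to 17.7%), 15.3% (15.0% to 15.6%) and 17.0% (16.8% to 17.2%). The aged library thus had the highest activator share and the lowest share of both parts of the cap, and for these 3 roles the AA value lay between the other two.

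In B cells too the aged library had the highest activator share and the lowest ATPase share, but the rest of the cap had the same share there as in the young library. Their activator share was 12.2% (11.8% to 12.5%) in the young, 14.5% (14.2% to 14.7%) in the aged and 12.7% (12.5% to 12.9%) in the AA library. Their ATPase share was 9.33% (9.03% to 9.64%), 8.44% (8.21% to 8.67%) and 9.60% (9.40% to 9.80%), with the AA value above the young one. Their non-ATPase share was 18.5% in both the young and the aged library and 19.3% in the AA library. NK cells, with 1809 to 4099 UMIs of these genes per library, had activator shares of 11.5% (10.6% to 12.5%), 14.1% (12.8% to 15.5%) and 12.1% (10.6% to 13.6%). Their ATPase shares of 10.7%, 9.96% and 11.2% had overlapping intervals.

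**Figure D1:**
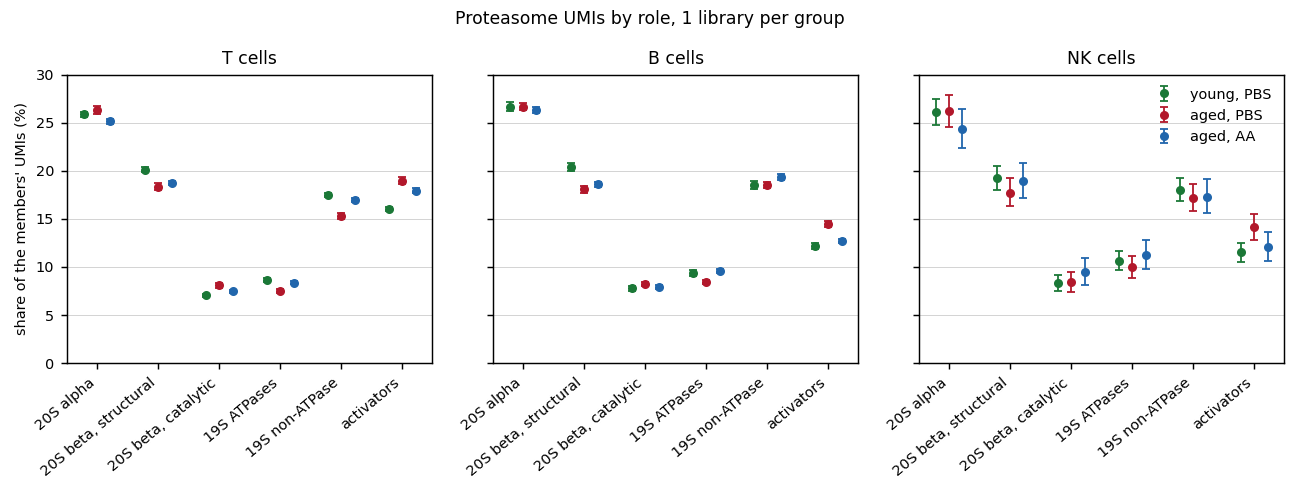
Share of the UMIs of the 43 proteasome genes (y axis, %) taken by each role (x axis) in T, B and NK cells, with 1 point per library and exact 95% counting intervals. The activator share is highest in the aged library in all 3 classes, at 18.96% in T cells, 14.5% in B cells and 14.1% in NK cells, and the ATPase share is lowest there.

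For the activator and ATPase shares, the order of the libraries in each class was also measured within subsets of T and B cells. In cells with Cd4 and no Cd8 UMIs the activator share was 14.7%, 17.5% and 15.5% in the young, aged and AA library, and the ATPase share was 9.21%, 7.45% and 9.13%. In CD8 cells without a UMI of the chemokine gene Ccl5, which marks effector and memory cells, the activator share was 18.1%, 22.1% and 20.5%, and the ATPase share was 8.08%, 7.04% and 8.03%. B cells without a UMI of Jchain, a gene of antibody-secreting cells, gave activator shares of 12.2%, 14.9% and 12.8%.

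The core roles held most of the RNA. The 8 alpha genes took 25.9%, 26.4% and 25.1% of the UMIs in T cells and 26.7%, 26.7% and 26.3% in B cells of the young, aged and AA library. The 4 structural beta genes had their highest share in the young library, at 20.1% against 18.4% and 18.7% in T cells and 20.4% against 18.1% and 18.6% in B cells. The 3 catalytic beta genes took 7.04%, 8.09% and 7.49% in T cells and 7.78%, 8.24% and 7.89% in B cells, where the intervals of all 3 libraries overlap.

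For single genes, ratios between libraries are given relative to the median gene, since the median CPM itself differed between the libraries. The median of the 11170 genes with at least 50 UMIs in T cells was 1.32-fold higher in CPM in the aged than in the young library, and the median of 10776 genes in B cells was 1.22-fold higher. A gene is counted as higher where its ratio, with 0.5 UMI added to each count, is more than 25% above that median, and as lower where it is more than 20% below. In T cells, 41 of the 43 genes had enough UMIs, Psma8 (testis) and Psmb11 (thymus) being the others. Between the aged and the young library 2 of the 41 were higher, where 26.4% of all genes were, and 10 were lower, where 25.0% of all genes were. The median over the 41 genes was -0.12 on the log2 scale against 0 by construction for all genes. The count of lower genes is thus close to the background and the count of higher genes is below it. The median was -0.07 in CD8 and in CD4 cells, but 0.04 in CD8 cells without Ccl5. T cells with at least 2 UMIs of Ccl5 numbered 424 of 5367, 623 of 1956 and 1515 of 4235 in the young, aged and AA library. The part of this difference in the T cell ratios was not tested.

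Among the cap genes, Psmd4, a ubiquitin receptor of the 19S cap, stood at 118 CPM in young, 101.2 in aged and 121 in AA T cells. Its aged level was the lowest of the 3, and relative to the median gene it was 0.649 of the young level (0.603 to 0.698). In B cells Psmd4 stood at 108, 90.0 and 112 CPM, again with the lowest level in the aged library, and its relative ratio was 0.686 (0.631 to 0.745). Psmd8, a non-ATPase subunit of the lid, stood at 129, 117 and 128 CPM in T cells, a relative ratio of aged over young of 0.686 (0.641 to 0.734). In B cells the levels of Psmd8 were 146, 152 and 163 CPM, with the lowest in the young library, but relative to the median gene aged over young was at 0.853 (0.797 to 0.913), so that its direction there depends on the scale. Psmd14, the deubiquitinase that removes the ubiquitin chain, stood at 49.1, 48.8 and 50.6 CPM in T cells and 54.6, 52.5 and 51.6 CPM in B cells. Its relative ratio of aged over young was 0.754 (0.677 to 0.839) in T cells and 0.790 (0.705 to 0.885) in B cells, although its CPM levels lay close together. Psmc2, an ATPase of the ring, stood at 53.6, 48.3 and 59.5 CPM in T cells and at 54.0, 46.8 and 61.1 CPM in B cells, lowest in the aged library in both classes.

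Of the core genes, Psmb1, a structural beta subunit, held 323 CPM in young, 272 in aged and 307 in AA B cells, a relative ratio of aged over young of 0.692 (0.660 to 0.725). In T cells Psmb1 stood at 324, 308 and 311 CPM, a relative ratio of 0.723 (0.693 to 0.754). Psma5, an alpha subunit, stood at 107, 88.0 and 80.9 CPM in B cells, a relative ratio of 0.673 (0.619 to 0.732), and was lower still in the AA library. Psmb5, the subunit with the chymotrypsin-like active site and the target of the drug bortezomib, went the other way. It stood at 90.2 CPM in young, 148 in aged and 117 in AA T cells, a relative ratio of aged over young of 1.247 (1.17 to 1.33), and at 86.1, 121 and 96.7 CPM in B cells. The active-site genes Psmb6, Psmb7 and Psmb10 also had their highest CPM in the aged T cells, with smaller relative ratios. Psmb6 stood at 127, 155 and 146 CPM and Psmb7 at 52.0, 69.7 and 56.0 CPM in T cells, with relative ratios of aged over young of 0.929 (0.873 to 0.987) and 1.02 (0.926 to 1.12). Psmb10, the inducible active-site subunit, stood at 105 CPM in young, 155 in aged and 142 in AA T cells, a relative ratio of 1.13 (1.06 to 1.20). In B cells it stood at 98.5, 124 and 123 CPM. Of the 3 catalytic beta genes, only Psmb5 was above the median gene for aged over young in B cells. Psmb6 and Psmb7 were below it there, and Psmb7 was lower in the aged library in CPM as well.

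The activators did not all differ by the same size, nor in B cells in the same direction relative to the median gene. For aged over young 4 of the 5 were above it in B cells, and Psme1 was below it. The summed activators had a relative ratio of 1.03 (0.992 to 1.07) there. Psme3, which encodes a nuclear activator, stood at 19.8 CPM in young, 38.4 in aged and 26.7 in AA T cells. It stood at 23.5, 41.4 and 24.9 CPM in B cells, so that the aged library was the highest in both classes. The relative ratio of aged over young was 1.47 (1.29 to 1.68) in T cells, from 360 aged and 555 young UMIs, and 1.45 (1.24 to 1.70) in B cells. In CD4 cells alone the interval of Psme3 included 1, at 1.21 (0.910 to 1.61), and in CD8 cells without Ccl5 the ratio was 1.865 (1.37 to 2.515). Psme4, a large single-chain activator, stood at 19.8, 29.0 and 22.1 CPM in T cells and 24.7, 39.4 and 26.2 CPM in B cells. Its relative ratio was 1.11 (0.957 to 1.29) in T cells and 1.31 (1.12 to 1.53) in B cells. Psme2b, a copy of Psme2 on chromosome 11, stood at 7.19, 13.4 and 8.21 CPM in T cells and 8.13, 18.2 and 15.1 CPM in B cells. Reads of 2 such similar genes may be split or lost in counting, so its values are uncertain. Psme1 stood at 362, 483 and 437 CPM in T cells, and its relative ratio of aged over young was 1.01 (0.978 to 1.05). Psme2 stood at 205, 310 and 269 CPM in T cells, a relative ratio of 1.15 (1.10 to 1.20), and at 113, 142 and 130 CPM in B cells, where its relative ratio of 1.03 (0.956 to 1.11) had an interval that includes 1.

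In B cells, 3 of 41 genes were higher by that rule in the aged than in the young library (24.0% of all genes) and 11 were lower (23.0% of all genes), with a median of -0.23 on the log2 scale. The 3 higher genes were Psme2b, Psme3 and Psme4, all activators.

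The second comparison set the AA against the aged library, and since both comparisons share the aged library their values are given side by side only. In T cells 5 of 41 genes were higher (17.6% of all genes) and 2 were lower (19.2% of all genes). In B cells 6 were higher (16.3% of all genes) and 2 were lower (17.7% of all genes). The median over the genes in T cells was 0.08 on the log2 scale, but -0.05 in CD8 cells without Ccl5. In CD8 and CD4 cells it was 0.04 and 0.09. Psmd4 had a relative ratio of 1.38 in both classes (1.28 to 1.48 in T cells, 1.29 to 1.48 in B cells), and Psmc2 of 1.42 (1.27 to 1.58) in T cells and 1.44 (1.31 to 1.59) in B cells. Psmd8 was at 1.26 (1.18 to 1.35) in T cells, and Psmc4, another ATPase of the ring, at 1.368 (1.254 to 1.493) in B cells, from 56.9 CPM in the aged and 70.4 CPM in the AA library. The lowest were Psme3 at 0.799 (0.701 to 0.912) in T cells and 0.665 (0.589 to 0.750) in B cells, Psme4 at 0.736 (0.653 to 0.830) in B cells and Psme2b at 0.703 (0.559 to 0.886) in T cells. Psmb5 was at 0.905 (0.848 to 0.965) in T cells and 0.883 (0.828 to 0.943) in B cells. Set against the young library directly, the AA library had 0 genes higher and 1 lower in T cells (18.6% and 15.9% of all genes), and 2 higher and 1 lower in B cells (15.3% and 15.2%). The lower gene was Psma5 in both, at 0.693 (0.654 to 0.735) in T cells and 0.683 (0.632 to 0.739) in B cells. The higher genes in B cells were Psme2b and the cap gene Psmd3, the latter named after its values were seen.

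**Figure D2:**
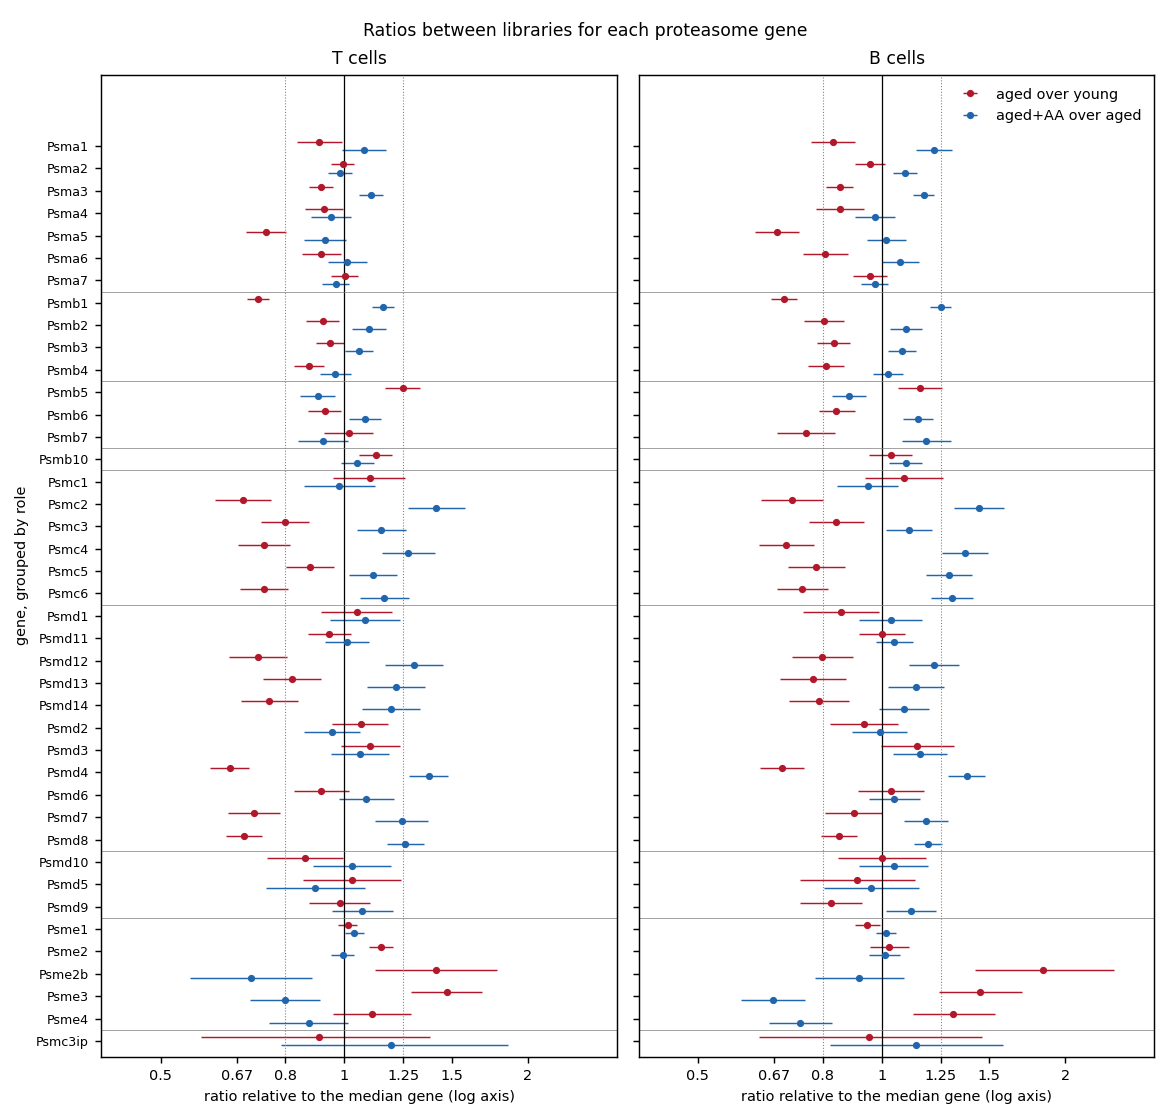
Ratio between libraries relative to the median gene (x axis, logarithmic) for the 41 proteasome genes with at least 50 UMIs (y axis, grouped by role) in T and B cells, with 95% counting intervals; dotted lines mark 25% above and 20% below the median gene. Psmd4 is at 0.649 for aged over young and 1.38 for AA over aged in T cells, and Psme3 is at 1.47 and 0.799.

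How many genes were above or below 1 depended on the scale. On 3 scales (CPM, CPM over genes without ribosomal, mitochondrial, haemoglobin and receptor genes, and relative to the median gene), 14 of 41 genes were above 1 and 10 below 1 on all of them in T cells for aged over young. The 10 below were the cap genes Psmc2, Psmc4, Psmc6, Psmd4, Psmd7, Psmd8, Psmd12 and Psmd14 with Psma5 and Psmb1 of the core. The 14 above held all 5 activators, the active-site genes Psmb5, Psmb7 and Psmb10, Psma7, Psmc1, Psmd1, Psmd2, Psmd3 and the chaperone gene Psmd5. In B cells 11 were above and 14 below on all scales, and for AA over aged the counts were 12 above and 14 below in T cells and 18 above and 9 below in B cells. These counts take signs only, whatever the interval. The scales differ by 1 factor per comparison. For aged over young, genes above the median gene were therefore above 1 on all scales. By construction these were 5585 of 11170 genes in T and 5388 of 10776 in B cells. For AA over aged, genes below the median gene were below 1 on all scales, in the same numbers. No share over all genes was computed for the other counts. The 24 ratios singled out by rule in T and B cells kept their direction on the other scales. Since the scales differ by 1 factor only, those picked as higher for aged over young or lower for AA over aged could not reverse. All 24 were also picked as the most extreme of these ratios.

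The sum over all 43 genes had no direction that held on every scale in T and B cells. T cells held 3823, 4612 and 4257 CPM of proteasome UMIs in the young, aged and AA library, a ratio of aged over young of 1.21 in CPM, of 1.04 without ribosomal and the other genes left out, and of 0.916 (0.905 to 0.926) relative to the median gene. B cells held 3752, 3952 and 3937 CPM, with ratios of 1.05, 1.00 and 0.866 (0.854 to 0.877). For AA over aged the sum in T cells was at 0.923 in CPM, 1.01 on the second scale and 1.06 (1.05 to 1.07) relative to the median gene, and in B cells at 0.996, 1.02 and 1.10 (1.09 to 1.11). NK cells held 5666, 5101 and 5175 CPM, and there the aged sum was below the young one on all 3 scales: the ratio was 0.900 in CPM and 0.853 (0.812 to 0.895) relative to the median gene, and on the second scale the young, aged and AA levels were 7248, 6441 and 6592. In NK cells 37 genes had enough UMIs. Of these, 0 were higher and 14 were lower for aged over young (25.0% and 23.6% of all genes), among them Psmc2 at 0.590 (0.381 to 0.897) and Psmd14 at 0.514 (0.319 to 0.807). For AA over aged, 6 were higher (21.4%) and 2 lower (23.1%), with Psmc2 at 1.77 (1.09 to 2.89). Against the young library the AA library had 1 higher (20.6%), Psmd9, a chaperone of cap assembly named after its values were seen, and 6 lower (20.2%).

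**Figure D3:**
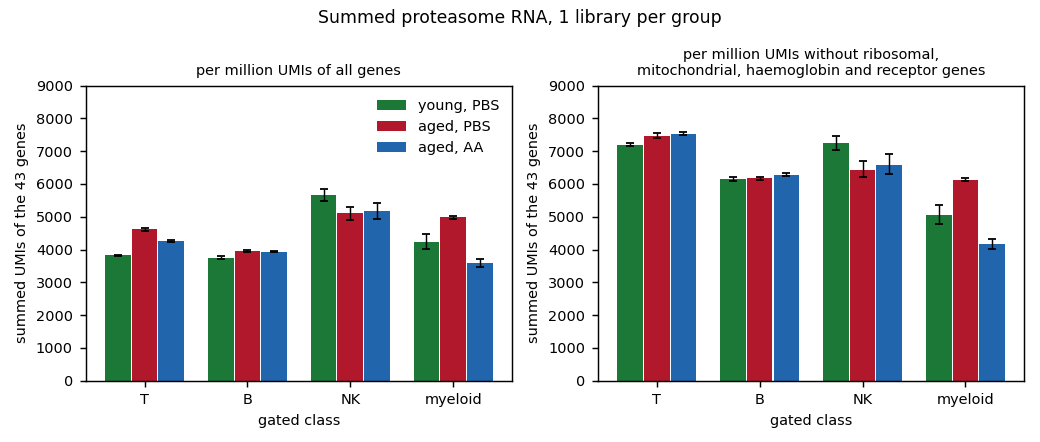
Summed UMIs of the 43 proteasome genes (y axis) in CPM of all genes (left) and in CPM without ribosomal, mitochondrial, haemoglobin and receptor genes (right) in the 4 gated classes, with 1 bar per library and 95% counting intervals. In T cells the aged bar is the highest on the left, at 4612, while on the right the aged and AA bars stand at 7479 and 7534.

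The makeup of the myeloid class differed between the libraries. Its cells held 4239, 4981 and 3586 CPM of proteasome UMIs. For aged over young 11 of 40 genes were higher and 8 lower (33.2% and 32.7% of all genes). For AA over aged 1 was higher and 21 were lower (27.6% and 28.6% of all genes), and the sum was at 0.726 (0.701 to 0.751). For AA over young 6 were higher and 13 lower (32.8% and 31.6% of all genes). The 0.5 UMI added to each count puts a few of these genes on the other side of the limits than their printed ratios. Neutrophils made up 726 of the 1923 aged and 148 of the 271 AA myeloid cells. Within monocytes alone the sum of AA over aged was at 0.794 (0.764 to 0.825). Within neutrophils alone it was at 0.971 (0.889 to 1.06), an interval that includes 1.

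Neutrophils held far less proteasome RNA, in CPM, than monocytes. In the aged library 726 neutrophils had 1599 CPM and 1157 monocytes had 5691 CPM, a ratio of 0.281 (0.271 to 0.291). In the AA library 148 neutrophils had 1672 CPM and 107 monocytes had 4866 CPM, a ratio of 0.344 (0.314 to 0.375). The 11 young neutrophils, with 70 UMIs of these genes, had 1508 CPM. Relative to the median gene the ratios were 0.559 and 0.502. Of the genes with enough UMIs, 32 of 40 were lower in the aged library (42.1% of all genes) and 22 of 25 in the AA library (39.8% of all genes), and 1 was higher in each (42.1% and 40.3%). The inducible subunit Psmb10 stood out: it had 15.9 CPM in aged neutrophils against 198.5 in monocytes, and 16.3 against 197 in the AA library. This is 32 and 6 UMIs in neutrophils, a ratio of 0.0801 (0.0546 to 0.113) and 0.0825 (0.0297 to 0.185). Psme1 and Psme2 were at 0.304 (0.267 to 0.346) and 0.275 (0.230 to 0.325) in CPM in the aged library, close to the sum at 0.281. Neutrophils had a median of 2226 UMIs in the aged library and 2155 in the AA library, against 8631 and 4524 in monocytes, and ribosomal protein genes took 3.404% of their UMIs in the aged library against 19.3% in monocytes.

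The activator pair Psme1 and Psme2 was lower in B than in T cells. For this, UMIs were summed per library and class, and classes were compared within libraries by edgeR's quasi-likelihood test over 12340 genes with Benjamini-Hochberg adjustment. The 3 libraries are the replicates here, and they are also 3 conditions. Psme2 stood at 205, 310 and 269 CPM in T cells and 113, 142 and 130 CPM in B cells of the young, aged and AA library. All 3 B cell values lay below all 3 T cell values. Its log2 fold change of B against T cells was -1.12 (SE 0.16, edgeR adjusted p = 3.5e-05). Psme1 stood at 362, 483 and 437 CPM in T cells and 287, 331 and 304 CPM in B cells, again without overlap, with a log2 fold change of -0.58 (SE 0.17, edgeR adjusted p = 0.013). These were the only 2 of 41 genes to pass as lower (19.5% of all genes). By edgeR 0 passed as higher (20.3% of all genes), 0 did so at an unadjusted p under 0.05, and DESeq2 called 0 higher and 6 lower. The median log2 fold change over the 41 genes was -0.14, against 0.02 over all genes tested. Without the AA library only Psme2 passed.

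In NK against T cells 1 gene passed as higher (9.64% of all genes) and 3 as lower (12% of all genes). Psmc3, an ATPase of the ring, stood at 129, 157.5 and 126 CPM in NK cells and 64.0, 67.4 and 67.6 CPM in T cells, with no overlap and a log2 fold change of 0.62 (SE 0.18, edgeR adjusted p = 0.019). Psme1 (-0.57), Psme2 (-0.63) and the uncertain Psme2b (-1.72) passed as lower, with edgeR adjusted p of 0.032, 0.015 and 0.041. These lower calls depend on scaling. In plain CPM Psme2 stood at 218, 227 and 220 in NK cells, within the range of T cells. With library sizes alone 14 genes passed as higher and 0 as lower, where 1 was lower at an unadjusted p under 0.05 and DESeq2 called 3. Without the young library 1 of the 41 genes passed, and without the AA library edgeR called 0, with 4 at an unadjusted p under 0.05. NK gates held 5 of 5 NK markers in each library, and the 6 T markers summed to 260 to 324 CPM there against 5171 to 5275 CPM in T cells, with Cd3e at 0 in the young library. The 8 myeloid markers summed to 3797, 3995 and 3948 CPM in NK cells, with Csf3r at 0 in all 3 libraries and Csf1r at 0 in the young and the AA library; their part in the NK results was not tested. Psme2b rests on 0, 5 and 1 UMIs in NK cells.

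In myeloid against T cells 4 genes passed as higher (27.2% of all genes) and 6 as lower (30.8% of all genes). The 3 highest were Psme4 at 0.69 (SE 0.18, edgeR adjusted p = 0.0038) and the alpha genes Psma7 at 0.67 and Psma1 at 0.65 on the log2 scale. Psma7, whose product is an alpha subunit of the core, stood at 286, 491 and 276 CPM in myeloid and 177, 234 and 197 CPM in T cells, with no overlap. Psma1 stood at 122, 138 and 121 CPM in myeloid and 69.3, 83.1 and 78.0 CPM in T cells, also with no overlap. Psmd8 was the fourth. The lower genes were Psmc3ip (-1.51), Psme1 (-0.67), Psmb1 (-0.58), Psme2 (-0.56), Psmd7 and Psma3. Psme1 stood at 307, 353 and 225.5 CPM in myeloid cells, all below the T cell values, and Psme2 at 203, 226 and 150 CPM, which overlaps the T cell range. Psmc3ip had 1, 8 and 4 UMIs in myeloid cells, and without the aged library its log2 fold change was 0.062. Without the AA library 4 genes passed in all, and without the aged library 1 as higher and 9 as lower.

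**Figure D4:**
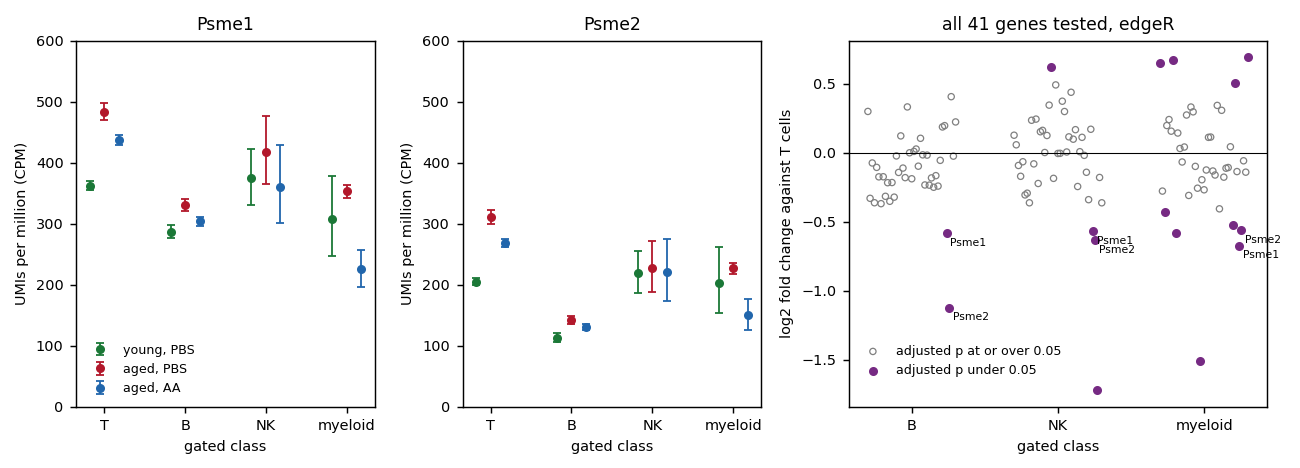
Left and middle: CPM (y axis) of Psme1 and Psme2 in each gated class (x axis), 1 point per library with 95% counting intervals. Right: log2 fold change against T cells (y axis) of the 41 proteasome genes in B, NK and myeloid cells, filled where the edgeR adjusted p is under 0.05. Psme2 has the lowest value in B cells, at -1.12, and all 3 B cell levels of 113 to 142 lie below the T cell levels of 205 to 310.

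Plasma cells, gated by at least 3 of the markers Jchain, Mzb1, Sdc1 and Xbp1 with at least 2 UMIs each, held more proteasome RNA than B cells. In the aged library 32 plasma cells had 5457 CPM, a ratio to B cells of 1.38 (1.33 to 1.43), and in the AA library 20 plasma cells had 5467 CPM, a ratio of 1.39 (1.33 to 1.45). The young library held 1 such cell. Plasma cells that also passed the B gate were counted on both sides, which the intervals do not take into account. Relative to the median gene the ratios were 2.33 and 2.13, and 35 and 37 of 41 genes were higher (38.1% and 39.2% of all genes) and 1 was lower in each (38.7% and 39.7%). In CPM, where the sums were at 1.38 and 1.39, the largest ratio was that of Psmd8, singled out after its values were seen. It was at 3.30 in the aged library from 288 UMIs and 3.74 in the AA library from 248. Psmb5 was at 2.22 (1.87 to 2.62) and 2.47 (2.00 to 3.03) in CPM. In CPM Psme1 was at 0.541 (0.441 to 0.658) and 0.706 (0.565 to 0.872) of B cells in the aged and AA library. Relative to the median gene it was at 0.915 and 1.08, so that its direction in the AA library depends on the scale. The activator share was 8.43% and 8.34% in plasma cells against 14.5% and 12.7% in B cells.

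Cycling cells, of any class and with at least 2 UMIs of Mki67 and Top2a together, also held more proteasome RNA than T cells in CPM. There were 66, 126 and 101 such cells in the young, aged and AA library, with 4992, 5875 and 5860 CPM against 3823, 4612 and 4257 in T cells. Their ratio to T cells was 1.31 (1.26 to 1.36), 1.27 (1.24 to 1.30) and 1.38 (1.34 to 1.41). Cycling cells that passed the T gate were counted on both sides, which these intervals do not take into account. Relative to the median gene the ratios were 1.10 (1.06 to 1.15), 1.26 (1.23 to 1.29) and 1.22 (1.19 to 1.253). Of 41 genes, 12 were higher in the young library, at the share of all genes (29.3%), while 24 were higher in the aged and 26 in the AA library (29.6% and 29.8% of all genes). In each library 2 genes were lower (29.0%, 30% and 29.4% of all genes). In CPM Psmd8 was at 1.41 (1.13 to 1.73), 2.24 and 2.21 of its level in T cells. Psme1 was at 1.10 (0.952 to 1.26), 0.719 and 0.824 in CPM, and at 0.927, 0.712 and 0.732 relative to the median gene. Psmc3ip, the gene of meiotic recombination, had 9 UMIs in young, 22 in aged and 27 in AA cycling cells, at 6.17, 4.73 and 6.57 times its CPM in T cells. Cycling cells are of several classes, so class and cycling cannot be told apart in these ratios. Within T cells the contrasts were small: cells with Ccl5 were at 1.12, 1.07 and 1.05 of those without, and CD8 at 1.01, 0.934 and 0.911 of CD4 cells, in summed CPM. Relative to the median gene CD8 cells were at 1.09, 1.06 and 1.04 of CD4 cells, so that the direction in the aged and AA libraries depends on the scale.

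**Figure D5:**
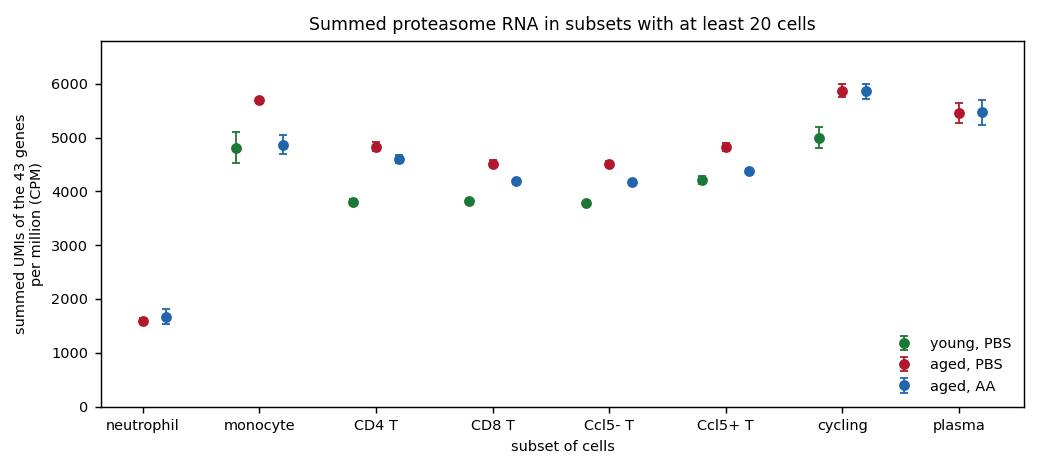
Summed UMIs of the 43 proteasome genes in CPM (y axis) in subsets of cells (x axis) with at least 20 cells, 1 point per library with 95% counting intervals. Neutrophils sit at 1599 and 1672, while monocytes, cycling and plasma cells sit between 4812 and 5875.

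Beside the 43 genes, 31 other genes of the pathway were followed: assembly factors, proteins bound to the cap, ubiquitin shuttles, the Nfe2l1 axis that raises proteasome genes, ubiquitin and its activating enzymes, and Psmb8 and Psmb9. In T cells 6 of 31 were higher and 9 lower for aged over young, where 26.4% and 25.0% of all genes were, and 4 were higher and 5 lower for AA over aged, where 17.6% and 19.2% of all genes were. In B cells 6 were higher and 7 lower for aged over young (24.0% and 23.0% of all genes), then 4 and 4 for AA over aged (16.3% and 17.7% of all genes). These counts are near or below the shares over all genes. Psmb8 and Psmb9, the active-site partners of Psmb10 in the immunoproteasome, together had a relative ratio of aged over young of 1.10 (1.07 to 1.13) in T cells. By edgeR 3 of the 31 passed as higher and 5 as lower in B against T cells, where 20.3% and 19.5% of all genes did. The 5 calls in NK cells were all lower, where 9.64% of all genes passed as higher and 12% as lower. In myeloid cells 5 passed as higher and 9 as lower, where 27.2% and 30.8% of all genes did. Of the 4 genes grouped here with the Nfe2l1 axis, the transcription factor Nfe2l2 and the protease Ddi2 were highest in myeloid against T cells. They were at 2.12 and 1.45 on the log2 scale, with edgeR adjusted p of 1.5e-08 and 9.1e-07. Nfe2l1 itself was at 0.59 (edgeR adjusted p = 0.022), and Ngly1 went the other way without passing, at -0.30 (edgeR adjusted p = 0.11). Sem1, outside this group, was at 1.52, above Ddi2. The naming of these pathway genes was not fixed in advance.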

How the data were processed

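The authors deposited raw UMI counts per gene for every barcode of 3 libraries. The file headers name Cell Ranger 4, and the build mm10 and Seurat 3.1.0 are listed in the submitters' processing notes. The members and lists used here were chosen with earlier results of these data known.

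From these counts, cells were called with Python 3.11.15, numpy 2.4.6 and scipy 1.17.1 by total UMIs and by difference from free RNA, with at least 500 UMIs, 250 genes and at most 10% mitochondrial UMIs. Scrublet in scanpy 1.11.5 removed 4.32%, 4.10% and 4.02% of barcodes as doublets (young, aged, AA). Cells over 5% haemoglobin UMIs were left out: 260, 1041 and 643. Gates needed 3 UMIs of own markers (myeloid: 1% of UMIs) and fewer than 3 of another class; these thresholds were set after marker UMIs were seen. The role shares and ratios within subsets of T and B cells were added after seeing the data. Cells with both T and NK markers (166, 251 and 327) and cells without a class (335, 700 and 657) entered no gate. Free RNA was estimated at 0.910% to 3.25% of a class's UMIs.

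Sums per library and class were scaled to CPM. Ratios used exact conditional binomial intervals and levels exact Poisson intervals, divided where stated by the ratio of the median gene among genes with at least 50 UMIs over the libraries (0.5 added to counts). Class contrasts used edgeR 4.0.16 (R 4.3.3) on 12 sums with TMM, a low-count filter, library as a block and 6 residual degrees of freedom. The libraries are separate samples of 3 conditions. The p-values measure only the spread left after library and class were fitted, pooled over all classes. DESeq2 1.42.0, other scalings, filters and gates were alternatives. Genes named were the active-site and activator genes, Psmd4, Psmd14, and by rule the 3 highest and 3 lowest per comparison. Both steps were run on simulated counts with known changes. The ratio simulation had counting error only, and the edgeR simulation had less residual spread than the data. They checked the computation and not the error of these data.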

Additional observations from a re-analysis of the deposited data

Results flagged for a closer look

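In 4 cases, genes lay on opposite sides of 1, more than 25% above or more than 20% below the median gene and with intervals that exclude 1, in 2 cell classes under the same comparison. With 1 library per group these differences between classes were not tested. No share of such cases over all genes is given, so the count of 4 cannot be set against a background. All 4 cases include the myeloid class. There 33.2% of all genes were higher and 32.7% lower for aged over young, and 27.6% and 28.6% for AA over aged. Psmd12, a non-ATPase subunit of the cap, was at 3.088 (1.32 to 9.54) for aged over young in myeloid cells, and at 0.7223 (0.647 to 0.805) in T, 0.79994 (0.713 to 0.898) in B and 0.5781 (0.353 to 0.925) in NK cells. Psmb2, a structural beta subunit, was at 1.42 (1.02 to 2.04) in myeloid and 0.686 (0.507 to 0.922) in NK cells. For AA over aged, Psmd8 was at 1.26 (1.18 to 1.35) in T and 0.647 (0.544 to 0.765) in myeloid cells, and Psmb1 at 1.2502 (1.20 to 1.30) in B and 0.693 (0.593 to 0.806) in myeloid cells. The young myeloid class held 59 cells, and the share of neutrophils in the myeloid class differed between the libraries; the part of these in the values was not tested.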

How the results depend on the processing

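The summed ratios in T and B cells depended on the scale. In T cells aged over young went from 0.916 to 1.21 in CPM and 1.04 without ribosomal and related genes, and AA over aged from 1.06 to 0.923 and 1.01. In B cells aged over young went from 0.866 to 1.05 and 1.003, and AA over aged from 1.10 to 0.996 and 1.02. With no gene filter for the median gene the 4 ratios were 0.885, 1.09, 0.895 and 1.12, in the order T aged over young, T AA over aged, B aged over young, B AA over aged. With genes of at least 1000 UMIs, an alternative chosen after seeing the data, they were 0.959, 1.03, 0.900 and 1.06. In T cells a limit of 5% mitochondrial UMIs gave 0.899 and 1.09, CD8 cells alone 0.933 and 1.03, and CD4 cells alone 0.971 for aged over young. In CD8 cells without Ccl5, chosen after seeing the data, they were 0.968 and 1.01 (0.979 to 1.03), so that the interval of AA over aged included 1, and in T cells with Ccl5 AA over aged was 1.04. In B cells without Jchain the ratios were 0.848 and 1.12. The other settings run on whole classes, among them predicted doublets kept, stricter gates, T cells with NK markers kept and no haemoglobin limit, moved these sums by less than their interval.

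The class contrasts used libraries as a block. With no replicate block 2 genes passed in B, 2 in NK and 8 in myeloid against T cells. DESeq2 called 6 in B cells. With library sizes alone 14 passed in NK cells, and with the stricter gate 2. Leaving out 1 library at a time, edgeR called 1 to 3 genes in B, 0 to 4 in NK and 4 to 10 in myeloid cells. Psmc3ip in myeloid cells ranged from -2.02 without the AA library to 0.062 without the aged library on the log2 scale, the latter with edgeR adjusted p = 0.95. Psme2 in B cells and Psma1 in myeloid cells passed under all 10 alternatives.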
